A study of Mus musculus with 12 samples.

Results

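Embryoid bodies made from mouse embryonic stem cells that lack Smad2 and Smad3 were set against wild-type embryoid bodies of the same age, across all genes of the deposited count table. The groups were taken from the library titles, and the comparison holds 4 of the 12 libraries of the series. S2/3DKO_D4 is the Smad2/3 double knockout and WT_D4 the wild type, each 4 days after the cytokine LIF was withdrawn and embryoid bodies were formed, with 2 libraries a group. Every library carries the cell line label E14Tg2a.IV, a derivative of the male mouse line E14Tg2a. For the knockout line, the sources used here give neither the edited exons nor the number of clones. Beside these stand undifferentiated cells of both genotypes (S2/3DKO_D0 and WT_D0) and Smad4 knockout embryoid bodies of day 4 (S4KO_D4), also 2 libraries each, which are used here only to place the day 4 differences. The comparison asks what the loss of Smad2 and Smad3 changes when stem cells leave pluripotency.

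Smad2 and Smad3 are the receptor-activated Smads of the Nodal, activin and TGF-beta branch of the pathway. Phosphorylated by the type I receptor, they join Smad4, enter the nucleus and bind DNA with partners such as Foxh1 and Eomes. In the mouse embryo, Nodal signalling patterns the epiblast, is required for the primitive streak and directs cells to definitive endoderm at high levels, while BMP signals travel through Smad1, Smad5 and Smad9. Embryoid bodies pass through a formative, epiblast-like state and then start a streak-like program without added factors.

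The 4 libraries held 55806858 and 50123451 counts in S2/3DKO_D4, against 53604809 and 51618920 counts in WT_D4. The unit of level is CPM, a count divided by the scaled size of its library, so values compare libraries and not genes of different length. Mitochondrial genes took 2.00% and 2.18% of the counts in S2/3DKO_D4, against 3.93% and 2.65% in WT_D4. Of 18693 genes tested, 2842 (15.2%) passed an adjusted p of 0.05 in edgeR's quasi-likelihood test, 1347 (7.21%) higher and 1495 (8.0%) lower in S2/3DKO_D4, and these genes are written below as risen or fallen. The share of calls that were higher was 47.4%, against 57.7% with limma on log2(FPKM + 1) and 58.4% on log2(FPKM + 0.1). Among them, 108 of the higher genes had no count in WT_D4 and 52 of the lower genes had none in S2/3DKO_D4. Leaving out S2/3DKO_D4 replicate 1 left 947 calls, leaving out S2/3DKO_D4 replicate 2 left 868, and leaving out WT_D4 replicate 1 left 1558. The p-values rest on the spread between replicate libraries of all 6 groups of the series, fitted together. The labels do not say whether the replicates were separate cultures, so this spread may be technical.

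**Figure D1:**
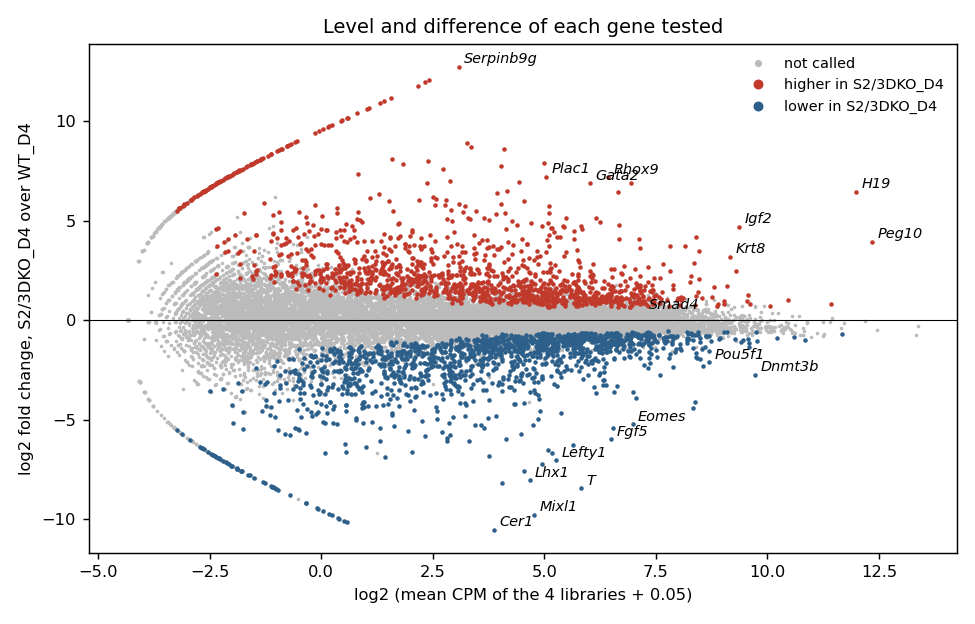
Each point is 1 of the 18693 genes tested, with its mean level in the 4 libraries on the x axis (log2 of CPM + 0.05) and its log2 fold change, S2/3DKO_D4 over WT_D4, on the y axis. Red points (1347 genes) were called higher and blue points (1495 genes) lower. Fitted fold changes of genes with no count in 1 group are no bounds.

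The targeted genes were still transcribed. Smad2 (chromosome 18, 76241580 to 76310963, mm10) stood at 48.3 and 46.7 CPM in S2/3DKO_D4, against 96.9 and 69.1 CPM in WT_D4. Smad3 (chromosome 9, 63646767 to 63757994) stood at 31.3 and 28.8 CPM, against 47.7 and 50.3 CPM in WT_D4. In both genes the S2/3DKO_D4 libraries lay below the WT_D4 libraries without overlap, but neither passed the threshold (log2 fold change -0.80 ± 0.25 SE, adjusted p = 0.0528 for Smad2, and -0.70 ± 0.26, adjusted p = 0.0869 for Smad3). Both passed in DESeq2 (adjusted p = 0.0350 for Smad2 and 0.0491 for Smad3). Whole-gene counts do not show whether the remaining transcripts carry the edit, so they are no direct check of the labels. Smad4, the partner left intact, stood at 174 and 159 CPM in S2/3DKO_D4, against 137 and 123 CPM in WT_D4, and did not pass (adjusted p = 0.248).

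Direct targets of Nodal signalling were low in S2/3DKO_D4. Lefty1 and Lefty2 are secreted inhibitors of Nodal that Nodal itself induces. Lefty1 (chromosome 1, 180935022 to 180938400) had 0.89 and 0.26 CPM in S2/3DKO_D4, against 41.4 and 111 CPM in WT_D4, a log2 fold change of -7.03 ± 0.78 (adjusted p = 3.12e-04). Lefty2 had 2.39 and 0.15 CPM in S2/3DKO_D4, against 88.9 and 109.5 CPM in WT_D4 (-6.27 ± 1.02, adjusted p = 0.00258). The 2 genes are near-identical neighbours, so the split of reads between them is uncertain, but both S2/3DKO_D4 libraries were far below both WT_D4 libraries for each. Of the 2 knockout libraries, replicate 1 held more of both transcripts than replicate 2.

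The ligand Nodal, which sustains its own expression, had 12.9 and 9.44 CPM in S2/3DKO_D4, against 46.9 and 93.6 CPM in WT_D4 (-2.65 ± 0.45, adjusted p = 0.00329). Its co-receptor Tdgf1 had 134 and 163 CPM in S2/3DKO_D4, against 603 and 459 CPM in WT_D4 (-1.84 ± 0.37, adjusted p = 0.00801). For both the groups were apart. Of a list of 14 Nodal and activin targets, 12 fell and none rose, with a median log2 fold change of -2.95 beside -0.03 over all genes tested. Other members that fell included Skil, a repressor of Smad transcription, Cer1, Gsc, Lhx1, Fst, Cyp26a1 and Tgif1, and Smad7 and Bmp7 did not pass. Without S2/3DKO_D4 replicate 2, 7 of the 14 passed, and Skil missed the threshold. The call of Tdgf1 was lost without S2/3DKO_D4 replicate 1, S2/3DKO_D4 replicate 2 or WT_D4 replicate 1, and that of Fst without either S2/3DKO_D4 library.

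**Figure D2:**
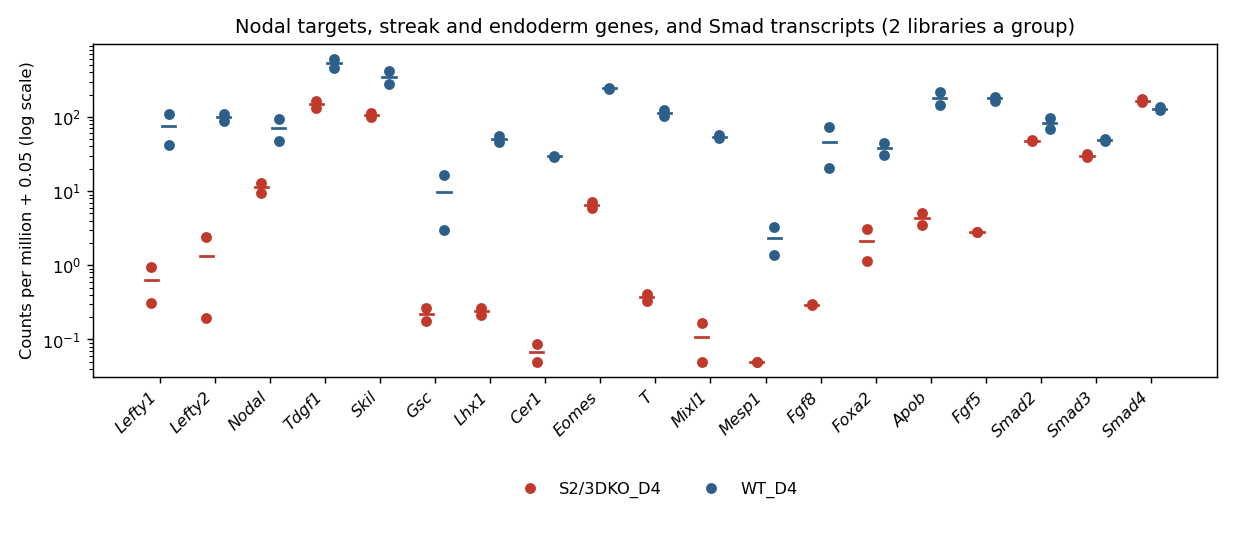
Level of Nodal targets, streak and endoderm genes, Fgf5 and 3 Smad transcripts in each library, as CPM + 0.05 on a log axis; red points are the 2 S2/3DKO_D4 libraries, blue points the 2 WT_D4 libraries, and the short lines are group means. The libraries of the 2 groups do not overlap for any gene shown, and the distance is smallest for the 3 Smad transcripts, which were not called.

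Secreted antagonists of the pathway fell in part. Of 12 antagonists tested, 6 fell (Lefty1, Lefty2, Cer1, Fst, Chrd and Fstl1) and 1 rose. Chordin, the BMP antagonist encoded by Chrd, had 1.32 and 1.25 CPM in S2/3DKO_D4, against 9.57 and 21.1 CPM in WT_D4 (-3.57 ± 0.45, adjusted p = 6.27e-04). Follistatin, the activin antagonist encoded by Fst, had 12.9 and 13.8 CPM in S2/3DKO_D4, against 118 and 87.3 CPM in WT_D4 (-2.94 ± 0.60, adjusted p = 0.00801). The 1 that rose was Fstl3, a follistatin relative, with 26.3 and 20.6 CPM in S2/3DKO_D4, against 2.51 and 4.196 CPM in WT_D4. Of 18 ligands only Nodal fell and only Bmp8b rose, beside 8.0% and 7.21% of all genes tested. Bmp8b, a BMP ligand made by trophoblast and germ cells, had 12.6 and 15.0 CPM in S2/3DKO_D4, against 1.40 and 1.67 CPM in WT_D4 (3.17 ± 0.39, adjusted p = 5.85e-04). Bmp4, Gdf3 and Inhba did not pass.

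Of 13 receptors and co-receptors tested, Tdgf1 and the type I BMP receptor Bmpr1b fell, beside 8.0% of all genes tested. Bmpr1a (195 and 224 CPM in S2/3DKO_D4, against 206 and 125 CPM in WT_D4) and Tgfbr1 (64.9 and 57.7 CPM, against 78.5 and 47.6 CPM in WT_D4) overlapped between the groups. Of 15 Smads and Smad partners, 5 fell: Smad1, Foxh1, Skil, Tgif1 and Pmepa1. Pmepa1, a membrane protein that TGF-beta signalling induces and that traps Smad2 and Smad3, had 6.47 and 6.58 CPM in S2/3DKO_D4, against 25.5 and 38.4 CPM in WT_D4 (-2.29 ± 0.40, adjusted p = 0.00375). Smad9 rose, at 2.34 and 1.78 CPM in S2/3DKO_D4, against 0.61 and 0.50 CPM in WT_D4 (1.89 ± 0.44, adjusted p = 0.0151). The call of Smad9 was lost whichever of the 4 libraries was left out. Those of Foxh1 and Bmpr1b were lost without either S2/3DKO_D4 library, that of Foxh1 also without WT_D4 replicate 2 and that of Bmpr1b also without WT_D4 replicate 1, and 1 of the 5 lower Smads and partners passed without S2/3DKO_D4 replicate 2.

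Genes of the primitive streak, the site where the embryo's mesoderm and endoderm arise, were among those with the largest drops. Eomes (chromosome 9, 118478212 to 118486132), a T-box factor needed for endoderm and the earliest mesoderm, had 7.15 and 5.92 CPM in S2/3DKO_D4, against 249 and 241 CPM in WT_D4 (-5.23 ± 0.29, adjusted p = 1.74e-05). T (chromosome 17, 8434423 to 8442496), the T-box factor Brachyury that marks the whole streak, had 0.28 and 0.37 CPM in S2/3DKO_D4, against 103 and 124 CPM in WT_D4 (-8.44 ± 1.02, adjusted p = 5.0e-04). Mixl1, a homeobox factor of the streak, had 0.12 and 0.00 CPM in S2/3DKO_D4, against 56.7 and 51.8 CPM in WT_D4 (-9.76 ± 0.91, adjusted p = 1.08e-04). For all 3, both S2/3DKO_D4 libraries were far below both WT_D4 libraries, and T and Mixl1 were close to 0 in each. In bulk RNA, fewer cells of a type and less RNA per cell cannot be told apart.

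Lhx1, a LIM-homeobox factor of the anterior streak and node, had 0.21 and 0.16 CPM in S2/3DKO_D4, against 45.4 and 55.8 CPM in WT_D4 (-8.03 ± 0.80, adjusted p = 2.4e-04). Fgf8, the growth factor that cells need to leave the streak, had 0.25 and 0.24 CPM in S2/3DKO_D4, against 20.7 and 72.2 CPM in WT_D4 (-7.56 ± 0.80, adjusted p = 2.4e-04). Mesp1, the earliest marker of cardiac mesoderm, had no count in S2/3DKO_D4 and 1.33 and 3.20 CPM in WT_D4, at least 86.2-fold lower against a floor of 3 counts over the knockout group. Of 18 streak genes 12 fell and none rose, with a median of -4.37, and the fall also covered Gsc, Evx1, Wnt3, Sp5, Cyp26a1 and Foxh1. Not called were Fgf4, Cdx1, Cdx2, Tbx6, Mesp2 and Wnt3a. The summed level of the markers T, Eomes, Mixl1 and Mesp1 was 7.55 and 6.29 CPM in S2/3DKO_D4, against 410 and 420 CPM in WT_D4. The call of Mesp1 was lost without either S2/3DKO_D4 library.

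Endoderm genes fell in part. Cer1 (chromosome 4, 82881751 to 82885148), a secreted inhibitor of Nodal, BMP and Wnt made by anterior endoderm, had the largest drop of all genes the naming rule picked, with 0.00 and 0.04 CPM in S2/3DKO_D4, against 30.2 and 28.6 CPM in WT_D4. This is 2 counts in all in S2/3DKO_D4, so WT_D4 was 1691-fold above it with a 95% counting interval of 468 to 13973. Foxa2, the pioneer factor of endoderm and node, had 3.04 and 1.08 CPM in S2/3DKO_D4, against 30.5 and 45.2 CPM in WT_D4 (-4.19 ± 0.54, adjusted p = 9.92e-04). Trh, the thyrotropin-releasing hormone gene that early endoderm expresses, had 33.7 and 25.2 CPM in S2/3DKO_D4, against 490.1 and 746 CPM in WT_D4 (-4.39 ± 0.51, adjusted p = 4.24e-04). Trh was already lower before differentiation, at 66.9 and 17.9 CPM in S2/3DKO_D0, against 311 and 343 CPM in WT_D0. The change of its difference between the days was not called, so its drop is not particular to day 4. Of 14 definitive endoderm genes 8 fell, Kitl, the ligand of the receptor Kit, rose, and the median was -1.69. Sox17 (4.71 and 3.61 CPM in S2/3DKO_D4, against 5.48 and 14.3 CPM in WT_D4) and Cxcr4 (4.23 and 7.59 CPM, against 5.86 and 6.19 CPM in WT_D4) did not pass, so 2 of the 3 defining markers of that layer carried no call. Without S2/3DKO_D4 replicate 2, 4 of the 8 drops passed.

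The RefSeq sequence upstream of the annotated start of Cer1 is shown as the example of a Nodal target at near 0 in S2/3DKO_D4. It holds 1 copy of CAGACA, the box that Smad3 binds in vitro, in capitals, and runs 5′ to 3′ on the gene's minus strand (chr4:82885152-82885401, GRCm38.p6, the assembly also named mm10).
Cer1: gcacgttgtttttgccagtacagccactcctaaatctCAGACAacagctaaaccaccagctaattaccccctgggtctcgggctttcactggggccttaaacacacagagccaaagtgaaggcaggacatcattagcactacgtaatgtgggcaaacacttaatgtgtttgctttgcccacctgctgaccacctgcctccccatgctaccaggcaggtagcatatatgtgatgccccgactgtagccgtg
The box, searched on both strands in the 250 bases before the start, was in 16.4% of the genes that fell at least 2-fold and had a promoter entry (143 of 874), in 18.2% of those that rose as far (163 of 895) and in 16.7% of all tested genes with an entry (2275 of 13585). Among the listed Nodal targets it was in 3 of the 7 with an entry. The Foxh1 motif AATCCACA was in 0.572%, 0.782% and 0.626% of the same 3 sets, and in 0 of the 7 listed Nodal targets. These shares are a description of the windows searched and say nothing of sites farther away.

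Visceral endoderm, the outer layer of the early embryo, was read through 21 genes, of which 7 fell, 1 rose and 13 did not pass (median -1.73). Apob, an apolipoprotein gene, had 5.07 and 3.48 CPM in S2/3DKO_D4, against 219 and 146 CPM in WT_D4 (-5.41 ± 0.72, adjusted p = 8.72e-04). Cubn, encoding the endocytic receptor cubilin, had 64.9 and 35.01 CPM in S2/3DKO_D4, against 372 and 296 CPM in WT_D4 (-2.74 ± 0.52, adjusted p = 0.00576). Dab2, an endocytic adaptor of the same cells, had 64.1 and 41.6 CPM in S2/3DKO_D4, against 270.1 and 226 CPM in WT_D4. Hnf4a, a defining factor of this layer, overlapped between the groups at 14.8 and 8.17 CPM in S2/3DKO_D4, against 13.96 and 16.04 CPM in WT_D4, and Afp (1.49 and 4.05 CPM, against 52.2 and 42.9 CPM in WT_D4) missed the threshold with an adjusted p of 0.0554 but passed in 8 of 16 alternatives, among them the 4 libraries alone (adjusted p = 0.00456) and limma on log2(FPKM + 1) (8.23e-05). The 1 that rose was Rhox5, an X-linked homeobox gene that placenta also expresses. Leaving out S2/3DKO_D4 replicate 1 kept 3 of the 7 drops and leaving out S2/3DKO_D4 replicate 2 kept 1, and Cubn and Dab2 were among those lost without the second. With the 4 libraries alone or with length and GC offsets 11 fell, and with limma on log2(FPKM + 1) 13 did. Of 17 genes of parietal endoderm and basement membrane, 3 rose and 2 fell, beside 7.21% and 8.0% of all genes tested. Nid1, Thbd and the protease gene Plat rose, and Dab2 and Fst fell. Col4a1, Lama1, Lamb1, Lamc1 and Sparc did not pass. Without WT_D4 replicate 2, 7 of these 17 rose, and without S2/3DKO_D4 replicate 2 none fell.

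Genes of the formative and primed epiblast, the state between naive stem cells and germ layers, were lower in S2/3DKO_D4. Fgf5, its classical marker, had 2.77 and 2.80 CPM in S2/3DKO_D4, against 189 and 167 CPM in WT_D4 (-5.99 ± 1.06, adjusted p = 0.00399). Dnmt3b, the de novo DNA methyltransferase switched on at that stage, had 221 and 220 CPM in S2/3DKO_D4, against 1397 and 1557 CPM in WT_D4 (-2.74 ± 0.50, adjusted p = 0.00483). Cdh2, encoding N-cadherin, had 2.44 and 4.55 CPM in S2/3DKO_D4, against 56.9 and 53.6 CPM in WT_D4 (-3.98 ± 0.57, adjusted p = 0.00134). In each of these both S2/3DKO_D4 libraries lay far below both WT_D4 libraries. Of 18 such genes 14 fell, 2 rose (Dnmt3l and Grhl2), and the median was -2.81. Otx2, Zic2, Zic5, Sox3, Foxd3, Lef1 and Wnt8a were among those that fell. Without S2/3DKO_D4 replicate 1 and replicate 2, 9 and 8 of the 14 drops passed, and those of Otx2 and Zic2 were lost in both.

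Shared pluripotency factors fell in part, and few naive ones were called. Pou5f1, encoding Oct4, had 169 and 140 CPM in S2/3DKO_D4, against 430.3 and 906 CPM in WT_D4 (-2.11 ± 0.33, adjusted p = 0.00224). Nanog had 164 and 137 CPM in S2/3DKO_D4, against 290 and 245 CPM in WT_D4 (-0.83 ± 0.24, adjusted p = 0.0396), and Sox2 had 157 and 108 CPM, against 187 and 179 CPM in WT_D4 (adjusted p = 0.341). Of 14 genes of this kind 5 fell, among them Pou5f1, Nanog, Tdgf1 and Foxd3, and none rose. Of 20 naive genes, none fell and 2 rose, beside 8.0% and 7.21% of all genes tested, so the counts say little about this list. Tfcp2l1, a factor of the naive network, had 170 and 141 CPM in S2/3DKO_D4, against 65.6 and 47.6 CPM in WT_D4 (1.46 ± 0.36, adjusted p = 0.0209), and Dppa3 had 21.6 and 16.9 CPM, against 7.36 and 6.82 CPM in WT_D4 (1.44 ± 0.35, adjusted p = 0.0193). Klf4, Esrrb and Zfp42 did not pass (adjusted p = 0.0555, 0.412 and 0.251). Klf4 was higher and passed in 7 of 16 alternatives, among them DESeq2 (adjusted p = 0.00445) and the 4 libraries alone (0.00805). The calls of Tfcp2l1, Dppa3 and Nanog were each lost without either S2/3DKO_D4 library, and Nanog missed the threshold in 9 alternatives in all (adjusted p up to 0.267). Tfcp2l1 also missed it without WT_D4 replicate 2, Nanog without WT_D4 replicate 1, and Dppa3 without either WT_D4 library.

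Many Wnt and FGF genes, which drive posterior and streak fates, fell with them. Of 20 Wnt ligands, modulators and targets, 11 fell and 1, the ligand Wnt6, rose, with a median of -1.76. The ligand Wnt7b, outside this list, also rose. It had 31.7 and 28.7 CPM in S2/3DKO_D4, against 2.10 and 2.62 CPM in WT_D4 (3.68 ± 0.45, adjusted p = 5.3e-04). Rspo3, a secreted enhancer of Wnt signalling, had 0.10 and 0.05 CPM in S2/3DKO_D4, against 9.27 and 6.67 CPM in WT_D4 (-6.63 ± 1.12, adjusted p = 0.00388). Lef1, a nuclear effector of the pathway, had 5.09 and 4.69 CPM in S2/3DKO_D4, against 33.4 and 38.5 CPM in WT_D4 (-2.88 ± 0.41, adjusted p = 0.0012). Axin2, its feedback target, had 13.0 and 10.5 CPM in S2/3DKO_D4, against 31.3 and 51.7 CPM in WT_D4 (-1.82 ± 0.48, adjusted p = 0.0265). Of 16 FGF ligands and targets 8 fell and none rose (median -1.72), among them Fgf5, Fgf8, Fgf10, Fgf15 and Fgf17, while Fgf4, the ligand of naive stem cells, did not pass. Fgf15, a secreted FGF, had 1.16 and 0.92 CPM in S2/3DKO_D4, against 27.0 and 31.0 CPM in WT_D4 (-4.80 ± 0.38, adjusted p = 4.95e-05). The call of Axin2 was lost without either S2/3DKO_D4 library or WT_D4 replicate 2, as was that of Fgf17, and 5 of the 8 FGF drops passed without S2/3DKO_D4 replicate 2.

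Neural genes did not rise as a group. Of 22 early neural genes tested 7 fell, among them Sox3, Zic2, Otx2, Nes and Foxd3, and 2 rose, and several of these also mark the epiblast. The definitive neural markers Sox1 (1.06 and 0.70 CPM in S2/3DKO_D4, against 0.57 and 0.34 CPM in WT_D4) and Pax6 (1.54 and 1.03 CPM, against 1.33 and 1.09 CPM in WT_D4) did not pass and were low in both groups. Nes, encoding the intermediate filament nestin, had 26.0 and 19.2 CPM in S2/3DKO_D4, against 132 and 144 CPM in WT_D4 (-2.61 ± 0.42, adjusted p = 0.0023). Irx3, a homeobox gene, was 1 of the 2 that rose, at 24.9 and 20.5 CPM in S2/3DKO_D4, against 0.77 and 1.97 CPM in WT_D4 (4.05 ± 0.63, adjusted p = 0.00201), and the adhesion gene Ncam1 was the other. Without either S2/3DKO_D4 library, 4 of the 7 drops passed.

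Later mesoderm and blood genes were called in both directions, 5 of 21 mesoderm genes and 6 of 13 blood and endothelial genes tested, beside 15.2% of all genes. Of the mesoderm genes 4 fell (Mesp1, Dll3, Gata4 and Hoxb1) and Hand1 rose, and without S2/3DKO_D4 replicate 1 and replicate 2, 1 and 0 of the drops passed. Kdr, the VEGF receptor of vascular precursors, had 6.18 and 2.82 CPM in S2/3DKO_D4, against 4.77 and 5.19 CPM in WT_D4 and was not called. The blood factors Lmo2 (0.25 and 0.13 CPM in S2/3DKO_D4, against 2.64 and 2.30 CPM in WT_D4), Etv2, Tal1 and Runx1 fell. Gata1 rose, at 4.01 and 4.77 CPM in S2/3DKO_D4, against 1.29 and 1.42 CPM in WT_D4. Cdh5, encoding the endothelial VE-cadherin, stood apart from them with 47.2 and 37.9 CPM in S2/3DKO_D4, against 0.28 and 0.42 CPM in WT_D4 (6.92 ± 0.80, adjusted p = 4.05e-04). Lmo2 and Cdh5 kept their calls whichever library was left out. The others lost theirs: Tal1 and Gata1 without either S2/3DKO_D4 library, Gata1 also without WT_D4 replicate 1, Etv2 without S2/3DKO_D4 replicate 2 and Runx1 without any of the 4.

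Genes of trophoblast, the lineage that forms the placenta, rose. Gata2 (chromosome 6, 88193891 to 88207032), a zinc-finger factor of trophoblast, had 120 and 138 CPM in S2/3DKO_D4, against 0.68 and 1.51 CPM in WT_D4 (6.87 ± 0.51, adjusted p = 4.06e-05). Gata3, its relative in trophectoderm, had 38.1 and 29.8 CPM in S2/3DKO_D4, against 0.70 and 0.94 CPM in WT_D4 (5.37 ± 0.51, adjusted p = 1.25e-04). Hand1, a helix-loop-helix factor of trophoblast giant cells and extraembryonic mesoderm, had 66.3 and 68.3 CPM in S2/3DKO_D4, against 0.68 and 1.86 CPM in WT_D4 (5.73 ± 0.97, adjusted p = 0.00322). All 3 were low in both wild-type libraries and high in both knockout libraries. Tfap2c, an AP-2 factor of trophoblast and germ cells, had 195 and 191 CPM in S2/3DKO_D4, against 26.0 and 31.8 CPM in WT_D4 (2.74 ± 0.25, adjusted p = 1.07e-04). Pparg, a nuclear receptor that placental differentiation needs, had 27.5 and 37.4 CPM in S2/3DKO_D4, against 0.13 and 0.17 CPM in WT_D4 (7.73 ± 0.85, adjusted p = 4.34e-04).

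Of 24 trophectoderm factors and markers tested 14 rose and 1 fell, with a median of 1.81. The 1 that fell was Eomes, which trophoblast stem cells share with the streak. Cdx2, the factor that founds the trophectoderm in the mouse blastocyst, was not called and overlapped between the groups, at 2.05 and 1.78 CPM in S2/3DKO_D4, against 1.11 and 1.78 CPM in WT_D4. Elf5, a trophoblast stem cell factor, rose but stayed low, at 2.77 and 2.68 CPM in S2/3DKO_D4, against 0.09 and 0.10 CPM in WT_D4 (4.82 ± 0.92, adjusted p = 0.00607). The summed level of Cdx2, Elf5, Gata3, Plac1 and Krt7 was 296 and 306 CPM in S2/3DKO_D4, against 7.10 and 13.0 CPM in WT_D4, with none of the 5 at 0 in either group.

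Genes of differentiated trophoblast and placenta rose as well. Of 29 listed, 25 were tested, of which 21 rose and none fell, with a median of 6.38, or 5.38 with the 8 genes that had an empty group set at their bound. Those 8 passed the filter on low counts with no count in WT_D4, so a rise was the only direction open to them. Plac1 (chromosome X, 53069995 to 53240111), a placental growth gene, had 56.2 and 74.8 CPM in S2/3DKO_D4, against 0.55 and 0.33 CPM in WT_D4 (7.21 ± 0.58, adjusted p = 4.95e-05). Syna, the syncytin that fuses placental cells, had 30.2 and 30.2 CPM in S2/3DKO_D4, against 0.29 and 0.42 CPM in WT_D4. Prl3d1, the giant cell hormone placental lactogen I, had 2.89 and 5.28 CPM in S2/3DKO_D4 and no count in WT_D4, at least 143-fold higher when 3 counts over the group are taken as the floor. Its call was lost without S2/3DKO_D4 replicate 2 or WT_D4 replicate 1, and in DESeq2. Ctsq and Prl3b1, of later trophoblast, Ovol1 and Tmem54 were tested and did not pass. The GATA motif GATAAG lay within 250 bases before the start in 4 of 18 of the listed genes with a promoter entry, in 6.93% of the genes that rose at least 2-fold (62 of 895), in 6.06% of those that fell as far (53 of 874) and in 6.01% of all tested genes with one.

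**Figure D3:**
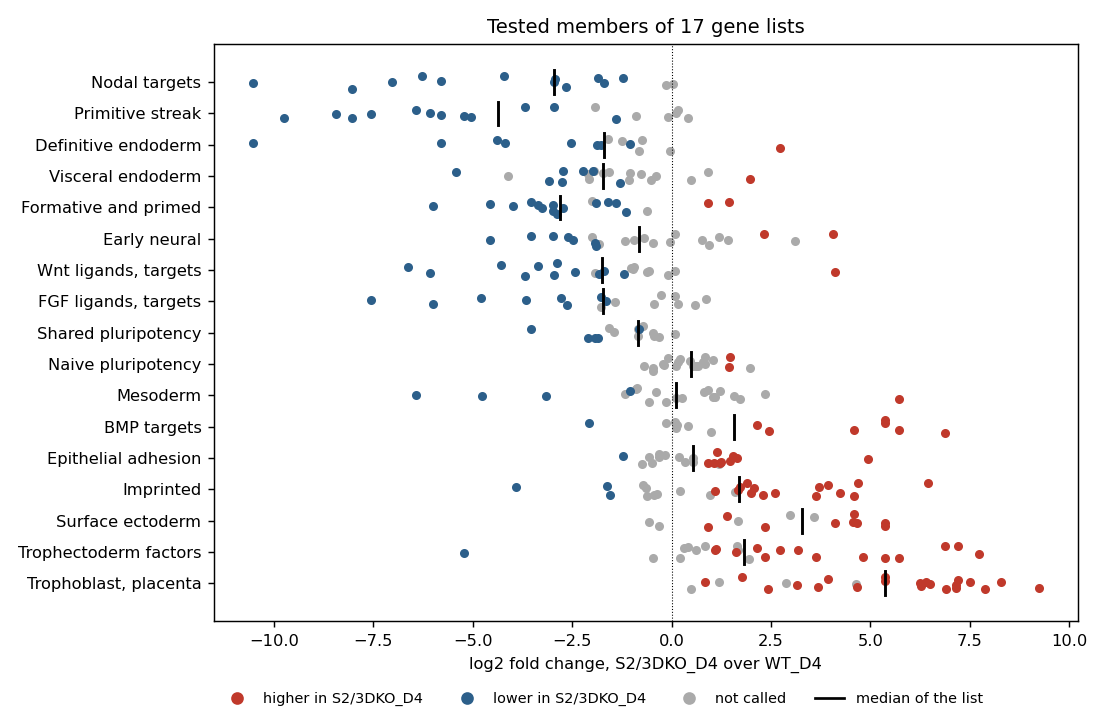
Log2 fold change, S2/3DKO_D4 over WT_D4, of each tested member of the lists named on the y axis; red points were called higher in S2/3DKO_D4, blue points lower, grey points were not called, and black bars are medians. Members with no count in 1 group are drawn at their bound against 3 counts. The medians run from -4.37 for primitive streak genes to 5.38 for trophoblast and placenta genes.

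Of the 12 named genes with the largest rise, 8 belong to clustered paralog families active in placenta. All 7 Serpinb9 genes on chromosome 13 (33003250 to 33496004), protease inhibitors of the granzyme B type, rose, and their sum was 190.1 and 206 CPM in S2/3DKO_D4, against 5.48 and 4.54 CPM in WT_D4. Serpinb9g had 17.1 and 16.7 CPM in S2/3DKO_D4 and no count in WT_D4, which is at least 600.4-fold higher. Serpinb9c and Serpinb9d, also without a count in WT_D4, were at least 376-fold and 349-fold higher, and Serpinb9e had 58.7 and 67.3 CPM in S2/3DKO_D4, against 0.22 and 0.31 CPM in WT_D4 (7.89 ± 0.73, adjusted p = 1.84e-04). For Serpinb9c, Serpinb9d and Serpinb9g a rise was the only direction open. Serpinb9e and Serpinb9f (0.00 and 0.08 CPM in WT_D4) could hardly have fallen either. Of 25 prolactin-family genes 14 were tested, all on the same chromosome. These 14 summed to 17.2 and 46.2 CPM in S2/3DKO_D4, against 0.04 and 0.00 CPM in WT_D4. They passed the filter on low counts with WT_D4 at or near 0, so the 11 of them called higher could hardly have moved the other way. Prl2c5 and Prl7d1 were at least 201-fold and 182-fold higher and Ctsj, a placental cathepsin, at least 310.1-fold. S2/3DKO_D4 replicate 2 held more prolactin-family reads than replicate 1. In DESeq2 Serpinb9c, Ctsj, Prl2c5 and Prl7d1 missed the threshold (adjusted p = 0.0963, 0.105, 0.130 and 0.137), and Prl7d1 also did without S2/3DKO_D4 replicate 2 or either WT_D4 library.

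The 150 bases before the RefSeq start of 4 of these paralogs and of Serpinb9 are printed because the 4 had few or no counts in WT_D4 (at most 0.31 CPM in a library), while Serpinb9 had 9.51 CPM in S2/3DKO_D4 and 1.96 CPM in WT_D4 on average. The upstream sequences of Serpinb9b (2.75 and 2.74 CPM in WT_D4) and Serpinb9c (no count in WT_D4) were not compared. A tie between sequence and level in WT_D4 was not tested. Capitals mark the longest run, 41 bases, that the first 4 share letter for letter. All lie on the plus strand of chromosome 13 of GRCm38.p6.
Serpinb9d (chr13:33192805-33192954): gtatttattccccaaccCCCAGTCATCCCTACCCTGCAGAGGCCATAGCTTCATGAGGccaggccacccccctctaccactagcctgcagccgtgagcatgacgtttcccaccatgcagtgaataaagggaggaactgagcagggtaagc
Serpinb9e (chr13:33249458-33249607): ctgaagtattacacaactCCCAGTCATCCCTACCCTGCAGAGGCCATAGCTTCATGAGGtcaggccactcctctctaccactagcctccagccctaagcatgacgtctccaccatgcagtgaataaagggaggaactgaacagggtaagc
Serpinb9f (chr13:33323927-33324076): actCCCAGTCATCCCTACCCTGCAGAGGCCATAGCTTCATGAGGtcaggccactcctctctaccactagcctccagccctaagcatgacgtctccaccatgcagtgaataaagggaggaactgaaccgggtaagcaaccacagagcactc
Serpinb9g (chr13:33484640-33484789): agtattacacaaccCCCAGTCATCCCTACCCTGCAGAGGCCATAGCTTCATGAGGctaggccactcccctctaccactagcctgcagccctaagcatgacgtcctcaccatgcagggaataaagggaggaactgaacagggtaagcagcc
Serpinb9 (chr13:33004391-33004540): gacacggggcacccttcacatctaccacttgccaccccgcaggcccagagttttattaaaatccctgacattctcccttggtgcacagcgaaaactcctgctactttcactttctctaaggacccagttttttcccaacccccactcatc
Over 250 bases, Serpinb9d, Serpinb9e, Serpinb9f and Serpinb9g were 85.6% to 94.4% identical to each other and 56.8% to 58.0% identical to Serpinb9 in a global alignment. Copies this alike can share reads, so the split between them is uncertain.

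The homeobox genes of the Rhox cluster on the X chromosome, active in placenta and gonad, rose in 15 of 24 tested (34 listed). The 24 tested summed to 463 and 603 CPM in S2/3DKO_D4, against 29.0 and 30.6 CPM in WT_D4. Rhox9 had 147 and 197 CPM in S2/3DKO_D4, against 1.03 and 1.36 CPM in WT_D4 (7.16 ± 0.67, adjusted p = 1.15e-04). The other 4 of the 12 named genes with the largest rise lie outside these families. Olr1, a scavenger receptor, had 19.9 and 20.6 CPM in S2/3DKO_D4, against 0.00 and 0.10 CPM in WT_D4 (8.67 ± 0.80, adjusted p = 4.77e-04). Fam90a1b had 31.1 and 36.6 CPM in S2/3DKO_D4, against 0.07 and 0.10 CPM in WT_D4. Chrdl2, a chordin-like BMP antagonist, was 313-fold higher in S2/3DKO_D4 by its counts (95% counting interval 86.4 to 2594, from 2 counts in WT_D4), and Dnajc5g 249.7-fold (85.1 to 1213, from 3 counts).

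Keratins of simple epithelia and genes of surface ectoderm, which trophoblast shares in part, rose as well. Krt7 (chromosome 15, 101411043 to 101430313) had 197 and 197 CPM in S2/3DKO_D4, against 4.65 and 9.90 CPM in WT_D4 (4.76 ± 0.76, adjusted p = 0.00232). Krt8, its common filament partner, had 930.1 and 1134 CPM in S2/3DKO_D4, against 67.5 and 160 CPM in WT_D4 (3.18 ± 0.83, adjusted p = 0.0242). All 4 such keratins (Krt7, Krt8, Krt18 and Krt19) rose. Of 14 surface ectoderm genes tested, 4 had no count in 1 group, so only 1 direction was open to them. In all, 9 of the 14 rose and none fell, beside 7.21% and 8.0% of all genes tested. Of these 9, Dlx3, Gata3 and Tfap2a are also expressed by trophoblast, and the epidermal factor Trp63 stayed at 0.43 and 0.92 CPM in S2/3DKO_D4 with no count in WT_D4. Krt8 lost its call without either S2/3DKO_D4 library or WT_D4 replicate 1, Krt18 without any of the 4, and Trp63 without S2/3DKO_D4 replicate 2 or WT_D4 replicate 1. The 9 surface ectoderm calls became 5 and 4 without S2/3DKO_D4 replicate 1 and replicate 2, and 3 without WT_D4 replicate 1.

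Of 21 epithelial adhesion genes, 9 rose and Ocln, encoding occludin, fell (median 0.54). Lgals3, encoding galectin-3, had 136 and 158 CPM in S2/3DKO_D4, against 4.02 and 5.52 CPM in WT_D4 (4.95 ± 0.37, adjusted p = 4.07e-05). The claudin gene Cldn4, the desmosome genes Dsp, Dsg2, Dsc2 and Pkp2, and the epithelial regulators Esrp2, Grhl2 and Ovol2 made up the rest. Cdh1, encoding E-cadherin, had 526 and 576 CPM in S2/3DKO_D4, against 778 and 868 CPM in WT_D4 and did not pass (adjusted p = 0.079). Of 18 mesenchymal genes Cdh2, Cdh11, Zeb2 and Twist1 fell and Snai2 rose, beside 8.0% and 7.21% of all genes tested. Snai1 and Vim did not pass. Twist1 (adjusted p = 0.0474) missed the threshold without a filter (0.0528), with the replicate block (0.0605) and with the 4 libraries alone (0.106). Without either S2/3DKO_D4 library 4 of the 9 rises passed, and without WT_D4 replicate 1 5 did.

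Readouts of BMP signalling were split. Of 14 BMP targets 7 rose and 1 fell, with a median of 1.56, but 4 of the 7 were Hand1, Dlx3, Gata2 and Gata3, which trophoblast expresses. Id2, an inhibitor of helix-loop-helix factors, had 66.5 and 69.4 CPM in S2/3DKO_D4, against 12.5 and 12.3 CPM in WT_D4 (2.45 ± 0.28, adjusted p = 3.74e-04). Id1 (40.1 and 39.3 CPM in S2/3DKO_D4, against 10.95 and 29.3 CPM in WT_D4, adjusted p = 0.139) and Id3 (39.9 and 35.2 CPM, against 11.3 and 44.9 CPM in WT_D4, adjusted p = 0.713) did not pass, nor did Smad6, Smad7 and Bambi. The drop was in Msx1, and its call was lost without either S2/3DKO_D4 library or WT_D4 replicate 2.

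Imprinted genes, expressed from 1 parental copy and many of them active in placenta, rose in 15 of 26 tested and fell in 3, with a median of 1.70. H19 (chromosome 7, 142575529 to 142578143), a maternally expressed long RNA, had 7155 and 8828 CPM in S2/3DKO_D4, against 80.0 and 104 CPM in WT_D4 (6.44 ± 0.46, adjusted p = 4.06e-05). Its paternally expressed neighbour Igf2, a growth factor, had 1168 and 1365 CPM in S2/3DKO_D4, against 49.7 and 48.3 CPM in WT_D4 (4.69 ± 0.48, adjusted p = 1.99e-04). Peg10 (chromosome 6, 4747306 to 4760517), a retrotransposon-derived gene needed for the placenta, had 7284 and 12295 CPM in S2/3DKO_D4, against 734 and 554 CPM in WT_D4 (3.93 ± 0.35, adjusted p = 8.82e-05). In all 3 each S2/3DKO_D4 library exceeded each WT_D4 library. Plagl1, Sfmbt2, Slc38a4, Ascl2, Phlda2, Cdkn1c and Peg3 also rose. Grb10, an adaptor that restrains growth, fell, at 15.4 and 17.4 CPM in S2/3DKO_D4, against 259 and 236 CPM in WT_D4 (-3.92 ± 0.34, adjusted p = 7.71e-05), as did Snrpn and Rian, while Meg3 did not pass. Counts without a stated strand cannot separate overlapping partners such as Igf2r and Airn, and Peg3 lost its call without S2/3DKO_D4 replicate 2 or WT_D4 replicate 2.

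Several trophoblast and imprinted genes were higher in S2/3DKO before differentiation, and others were not. At day 0, Gata2 had 34.7 and 31.3 CPM in S2/3DKO_D0, against 2.44 and 1.86 CPM in WT_D0. Plac1 had 25.05 and 16.98 CPM in S2/3DKO_D0, against 0.12 and 0.00 CPM in WT_D0, and H19 had 2073 and 2333 CPM in S2/3DKO_D0, against 15.4 and 14.7 CPM in WT_D0. The summed Serpinb9 level averaged 54.0 CPM in S2/3DKO_D0, against 2.34 CPM in WT_D0. By contrast, Ceacam9 had 0.14 and 0.39 CPM in S2/3DKO_D0, against 0.84 and 0.67 CPM in WT_D0. Phlda2 had 77.6 and 17.9 CPM in S2/3DKO_D0, against 78.4 and 75.2 CPM in WT_D0, and Ascl2 had 20.3 and 4.90 CPM in S2/3DKO_D0, against 6.14 and 5.23 CPM in WT_D0, with overlapping groups. Prl3d1 (0.00 and 0.37 CPM) and Prl7d1 (0.00 and 0.62 CPM) were near 0 in S2/3DKO_D0 and without a count in WT_D0. The genes given for day 0 were chosen after their values were seen. Lefty1 had 0.06 and 0.06 CPM in S2/3DKO_D0, against 226 and 225 CPM in WT_D0, while Eomes was low in both, at 6.96 and 5.10 CPM in S2/3DKO_D0, against 3.95 and 4.24 CPM in WT_D0. Ribosomal protein genes took 6.05% and 6.59% of the counts in S2/3DKO_D0, against 15.1% and 11.1% in WT_D0, and the part of this in the day 0 levels was not tested.

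**Figure D4:**
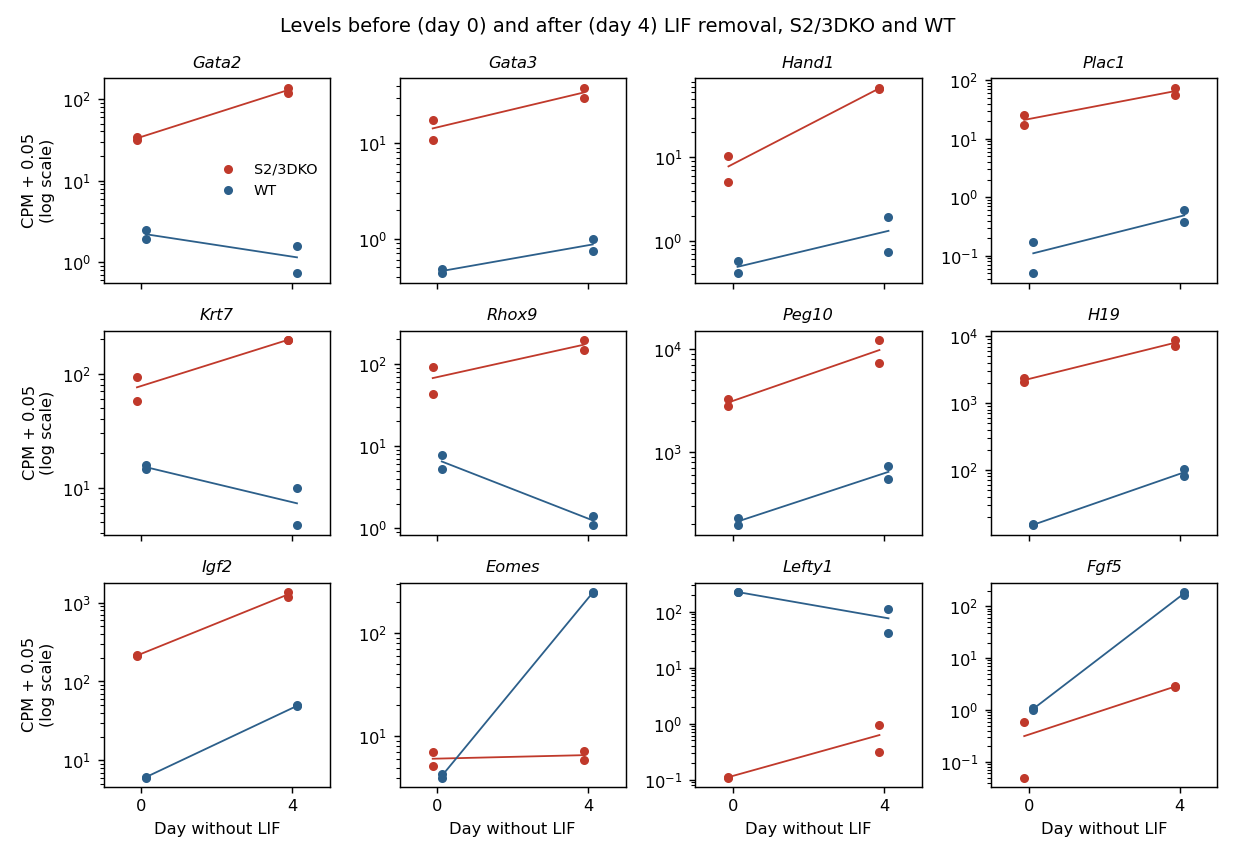
Level of 12 genes at day 0 and day 4 without LIF, as CPM + 0.05 on a log axis; red points are the 2 S2/3DKO libraries of each day, blue points the 2 WT libraries, and lines join the means. The trophoblast and imprinted genes drawn have means above WT at both days in S2/3DKO, Lefty1 is below at both, and for Eomes and Fgf5 the wide gap is at day 4.

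Whether the genotype difference itself changed between the days was tested with an interaction term, which called 1140 genes (6.1%). Eomes had the clearest change among the named genes: its difference at day 4 was lower by 5.79 on the log2 scale than at day 0 (adjusted p = 9.02e-05). Foxa2, Lhx1, Cubn, Pdgfra and Gata4 also had a significantly lower difference at day 4, and Lgals3 and Ceacam9 a higher one, and these calls, with that of Eomes, held whichever of the 8 libraries was left out. The term also reflects day 0: Cubn was higher there, at 4.52 and 12.7 CPM in S2/3DKO_D0, against 0.53 and 0.76 CPM in WT_D0. Pdgfra had no called difference at day 4 (adjusted p = 0.516). H19 (adjusted p = 0.355), Igf2 (0.654), Peg10 (0.928), Plac1 (0.369) and Gata3 (0.835) had no called change between the days. The number of genes called ranged from 28 without WT_D0 replicate 1 to 3887 without WT_D4 replicate 2, so this count rests on single libraries. It was 32 and 38 without S2/3DKO_D4 replicate 2 and replicate 1, 86 without WT_D4 replicate 1, 137 without WT_D0 replicate 2, and 453 and 725 without S2/3DKO_D0 replicate 1 and replicate 2.

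Smad4 is the shared partner of the receptor-activated Smads, and the series also holds embryoid bodies labelled as its knockout. Smad4 stood at 121 and 144 CPM in S4KO_D4, against 137 and 123 CPM in WT_D4 (log2 fold change 0.03 ± 0.20, adjusted p = 0.980), so its RNA level does not bear out the label, and whole-gene counts do not show whether these transcripts carry an edit. Since both knockouts would share the WT_D4 libraries, they were compared with each other. Between S2/3DKO_D4 and S4KO_D4, 2298 genes (12.3%) were called, 1206 higher and 1092 lower in S2/3DKO_D4. Eomes had 7.15 and 5.92 CPM in S2/3DKO_D4, against 12.2 and 15.8 CPM in S4KO_D4 (log2 fold change -1.10 ± 0.25, adjusted p = 0.0158), and WT_D4 had 249 and 241 CPM. Lefty1 was lower in S2/3DKO_D4 (0.89 and 0.26 CPM) than in S4KO_D4 (67.0 and 20.2 CPM), with an adjusted p of 6.92e-04. Fgf5 stood at 2.77 and 2.80 CPM in S2/3DKO_D4, against 8.84 and 98.9 CPM in S4KO_D4, where the 2 libraries were far apart (adjusted p = 0.0171).

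Trophoblast genes differed between the knockouts. Gata2 had 120 and 138 CPM in S2/3DKO_D4, against 1.68 and 3.08 CPM in S4KO_D4 (5.77 ± 0.48, adjusted p = 9.81e-05). Plac1 had 56.2 and 74.8 CPM in S2/3DKO_D4, against 0.30 and 0.22 CPM in S4KO_D4 (7.93 ± 0.61, adjusted p = 6.29e-05), and H19 had 7155 and 8828 CPM, against 98.1 and 176 CPM in S4KO_D4. The BMP target Id1 was also higher in S2/3DKO_D4, at 40.1 and 39.3 CPM, against 2.62 and 4.88 CPM in S4KO_D4 (3.41, adjusted p = 0.00126). Sox1 (1.06 and 0.70 CPM in S2/3DKO_D4, against 7.78 and 24.4 CPM in S4KO_D4) and Pax6 (1.54 and 1.03 CPM, against 18.97 and 15.1 CPM in S4KO_D4) were lower in S2/3DKO_D4 (adjusted p = 0.0019 for both). S4KO_D4 held Hprt transcripts (171 and 169 CPM) that S2/3DKO_D4 (0.18 and 0.40 CPM) and WT_D4 (0.41 and 0.25 CPM) nearly lacked, and its replicate 2 had 31566376 counts, so differences of line and of genotype cannot be told apart here. Genes of chromosome 8, which carries Sox1, had a median log2 fold change of 0.57 in S4KO_D4 over WT_D4, beside -0.04 over all chromosomes, and the part of this in the level of Sox1 was not tested. Without chromosomes 8, X and Y, 1735 of 17025 genes were called between the knockouts. Leaving out S2/3DKO_D4 replicate 1 or replicate 2 left 747 and 632 calls, and leaving out S4KO_D4 replicate 1 or replicate 2 left 1349 and 1050.

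Sex-linked genes also differed between S2/3DKO_D4 and WT_D4. Eif2s3y, a Y-linked translation factor, had 1.39 and 0.00 CPM in S2/3DKO_D4, against 85.7 and 57.6 CPM in WT_D4 (-6.66 ± 1.03, adjusted p = 0.00254). Uba1y and Uty were also among the 12 largest drops, as were the autosomal Trim67 and the potassium channel gene Kcnj3, and 5 of 8 Y-linked genes that averaged 1 CPM or more fell. Xist, the RNA that coats an inactive X chromosome, had 81.9 and 115 CPM in S2/3DKO_D4, against 9.64 and 7.51 CPM in WT_D4 (3.52 ± 0.59, adjusted p = 0.00288). Of 523 X-linked genes 21.0% rose and 16.8% fell, against 8.07% and 9.64% of all 13999 genes that averaged 1 CPM or more. The median log2 fold change of X-linked genes was -0.06 at day 4 and 0.55 at day 0, and that of chromosome 18, which holds Smad2, was 0.27 and 0.49, beside -0.08 and 0.00 over all these genes. The small Y-linked signal in S2/3DKO_D4 was in replicate 1, the library that also held more Lefty1 and Lefty2, and its part in those levels was not tested. A difference in chromosome content and the loss of Smad2 and Smad3 cannot be told apart with 1 knockout line.

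**Figure D5:**
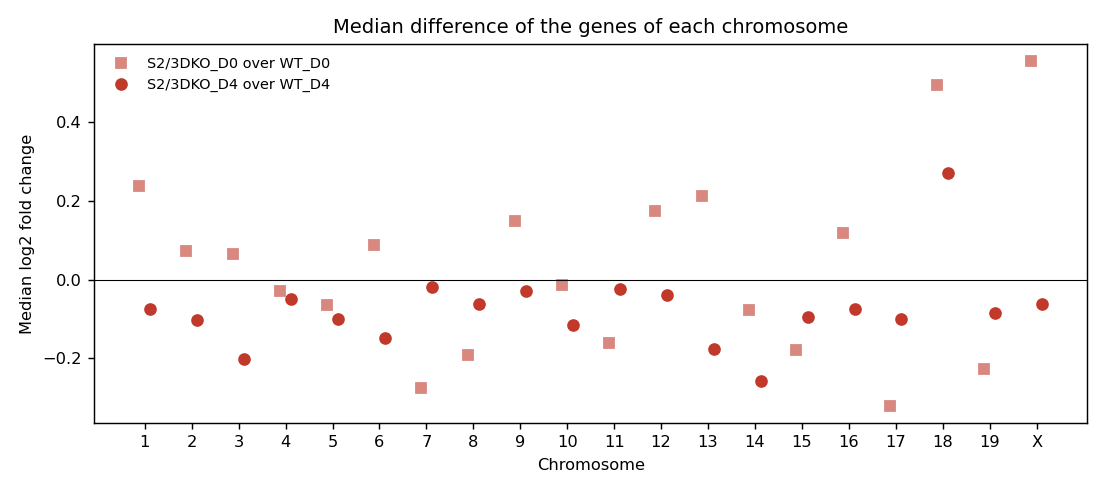
Median log2 fold change of the genes that averaged 1 CPM or more on each chromosome except Y; pale squares are S2/3DKO_D0 over WT_D0 and dark circles S2/3DKO_D4 over WT_D4. The X chromosome stands at 0.55 at day 0 and -0.06 at day 4, and chromosome 18 at 0.49 and 0.27.

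Of 20 hypoxia and glycolysis genes 6 rose, among them Ndrg1 (508 and 635 CPM in S2/3DKO_D4, against 74.2 and 84.1 CPM in WT_D4; 2.85 ± 0.30, adjusted p = 2.4e-04) and the angiogenic factor Vegfa (180.4 and 172 CPM, against 37.8 and 54.0 CPM in WT_D4; 1.94 ± 0.26, adjusted p = 9.93e-04), while the glycolytic Pgk1 did not pass. Of 27 cell cycle genes 6 fell and 2 rose, beside 8.0% and 7.21% of all genes tested. Ccnd1, encoding cyclin D1, had 28.9 and 26.1 CPM in S2/3DKO_D4, against 82.1 and 96.4 CPM in WT_D4, and the proliferation marker Mki67 overlapped between the groups. Of 12 listed genes of fibroblasts, which often feed stem cell cultures, 10 were tested. Of these, 1 rose and 2 fell, beside 7.21% and 8.0% of all genes tested (median 0.87). The 1 that rose was Postn, encoding the matrix protein periostin, at 10.8 and 9.44 CPM in S2/3DKO_D4, against 0.17 and 0.00 CPM in WT_D4 (6.87 ± 1.41, adjusted p = 0.0100), and Thy1 and Dcn fell. A set of 5 fibroblast markers summed to 17.2 and 15.6 CPM in S2/3DKO_D4, against 18.3 and 25.7 CPM in WT_D4. Without S2/3DKO_D4 replicate 1 and replicate 2, 3 and 2 of the 6 hypoxia calls passed and none of the 6 cell cycle drops did, Ccnd1 included, and without WT_D4 replicate 1 3 of each did.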

How the data were processed

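RNA sequencing of 12 libraries was used, 4 of them in the main comparison. The authors deposited a table of whole-number counts per gene for 32285 Ensembl gene IDs and a table of FPKM values; the submitters' processing notes name the build mm10, StringTie, Cufflinks and DESeq2. The sources used here do not name the aligner, the annotation or the strand setting. Symbols and positions were taken from GENCODE M21. Total counts ran from 31566376 to 55806858 per library, and counting intervals cover counting error only. No column was left without a sample.

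Counts were tested with edgeR 4.0.16 in R 4.3.3 (TMM scaling, filterByExpr, quasi-likelihood test) in 1 model of 6 groups and 12 libraries, and p-values were adjusted by Benjamini-Hochberg over 18693 genes, with a threshold of 0.05. Errors are standard errors derived from the test, the absolute log2 fold change divided by the square root of its quasi-likelihood F value. Levels are CPM, counts scaled to equal library size. Alternatives were DESeq2 1.42.0, RLE scaling, other filters, a minimum log2 fold change of 1, limma 3.58.1 on log2 of the deposited FPKM plus 1 or 0.1, offsets for length and GC content, fewer libraries in the fit, the genes without chromosomes 8, X and Y, a replicate block and leaving out each library. The code was tested on simulated data. Sequences came from RefSeq (GRCm38.p6); 13585 tested genes had a promoter entry.

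The members and the 35 gene lists were chosen with earlier results of these data known. Named were the 12 largest rises and 12 largest drops with separate groups and at least 5 CPM in the higher group, the anchor genes of each list and up to 4 further called members of each. Genes named beyond these, Hprt, Fstl3, Syna, Msx1 and Serpinb9 among them, were chosen after their values were seen. Where a group had no count, folds are bounds against 3 counts over the group. The replicate numbers do not pair the libraries, as described under the dependence on processing.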

Additional observations from a re-analysis of the deposited data

Results flagged for a closer look

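For 49 of the 188 named genes the S2/3DKO difference at day 4 was not the same as that at day 0, by the interaction term of the edgeR model (adjusted p between 9.02e-05 and 0.0474). Values in parentheses are the day 4 log2 fold change minus the day 0 log2 fold change. A negative value need not be a drop at day 4: Hnf4a, Col4a1, Sox7, Pdgfra and Dkk1 had no called difference there. Hnf4a, Col4a1 and Sox7 were higher in S2/3DKO_D0 than in WT_D0 (log2 fold change 2.09, 3.34 and 2.70). The difference was lower at day 4 for Mixl1 (-8.19), T (-7.27), Fgf8 (-5.86), Gsc (-5.22), Chrd (-2.62), Fst (-3.24), Skil (-2.20), Smad1 (-1.48), Eomes (-5.79), Hnf4a (-2.47), Apob (-5.62), Cubn (-6.47), Col4a1 (-2.54), Sox7 (-3.27), Dab2 (-4.36), Pdgfra (-4.37), Gata4 (-3.79), Lmo2 (-3.32), Zic2 (-3.14), Zic5 (-2.78), Nanog (-1.32), Dnmt3b (-2.73), Cdh2 (-3.995), Wnt8a (-4.64), Dkk1 (-4.56), Fgf15 (-2.03), Fgf10 (-3.41), Cdh11 (-5.22), Grb10 (-2.21), Pmaip1 (-2.97), Mcm4 (-1.16) and Dnmt3a (-1.16). It was higher at day 4 for Lefty1 (4.78), Dnajc5g (4.93), Bmp8b (2.83), Gata2 (2.93), Tfap2c (1.96), Wnt6 (3.78), Rhox9 (3.78), Socs3 (2.67), Gadd45g (3.93), Lgals3 (4.13), Cldn4 (2.23), Cdkn1c (2.11) and Vegfa (1.47). Lefty1 was nonetheless lower in S2/3DKO on both days (log2 fold change -11.81 at day 0 and -7.03 at day 4). Its value rests on levels near the floor, 0.06 and 0.06 CPM in S2/3DKO_D0. For Lhx1, Evx1 and Foxa2 both WT_D0 libraries had no count, and for Ceacam9 both WT_D4 libraries had none, so their fitted values, -13.86, -11.05, -11.29 and 11.51, depend on the prior count and are no bounds. Leaving out 1 of the 8 libraries in turn kept 8 of these genes called in each of the 8 fits (Lhx1, Eomes, Foxa2, Cubn, Ceacam9, Pdgfra, Gata4 and Lgals3). Without WT_D0 replicate 1 alone, the other 41 were not called.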

How the results depend on the processing

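The number of genes called between S2/3DKO_D4 and WT_D4 was 2842 and ran from 868 to 3040 when 1 library was left out (515 to 1466 higher, 353 to 1574 lower). Offsets for length and GC content gave 4762 calls (2242 higher, 2520 lower), and the cause was not tested. No gene called in the edgeR fit was called in the opposite direction under any alternative. The difference between days called 1140 genes, against 2549 without a filter, 3315 with DESeq2, 1850 with limma on log2(FPKM + 1) and 28 to 3887 with 1 library left out. S2/3DKO_D4 against S4KO_D4 called 2298 genes, against 4508 with only those libraries, 4385 with the length and GC offsets and 632 to 1349 with 1 library left out. Of 145 called named genes, 81 stayed called in each of the 4 fits without 1 library. The replicate block gave 2717 calls in place of 2842 (928 in place of 1140 between days); differences between replicates correlated at -0.147 between S2/3DKO_D4 and WT_D4 and at -0.147 to 0.339 over all pairs of groups, so the numbers do not pair the libraries. The sign of 10 genes that were not called turned in some settings. With 1 library left out the log2 fold change ran from -0.012 to 0.35 for Gdf3, -0.025 to 0.82 for Bmpr1a, -0.41 to 0.44 for Tgfbr1, -0.19 to 1.69 for Id3, -0.53 to 0.33 for Cxcr4, -0.82 to 0.29 for Kdr, -0.24 to 0.32 for Pax6, -0.97 to 0.42 for Nanos3, -0.53 to 0.13 for Ccnb1 and -0.49 to 0.16 for Tet1. Tgfbr1 stood at 0.016 without WT_D0, 0.023 with only the 4 libraries, 0.21 with the offsets, and 0.10, 0.11 and 0.10 in limma with a pseudocount of 1, of 0.1 and without a filter. Cxcr4 stood at 0.020 with RLE scaling and with DESeq2, 0.013 with a filter of 1 CPM, 0.037 without WT_D0, 0.036 with only the 4 libraries, and 0.016, 0.0069 and 0.016 in the same 3 limma fits. Tet1 stood at 0.10 with the offsets and at 0.066, 0.071 and 0.066 in the 3 limma fits. Depth limits genes near 3 counts a group.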

Other observations

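Of 15 targets of p53, the stress-response factor, 4 rose and 1 fell (median log2 fold change 0.32), beside 15.2% of all genes called. Cdkn1a, encoding the cell cycle inhibitor p21, had 120 and 110 CPM in S2/3DKO_D4, against 44.7 and 62.3 CPM in WT_D4 (1.10 ± 0.33, adjusted p = 0.0427). Mdm2, Btg2 and Perp rose beside it and Pmaip1 fell, and none of the 4 rises passed without either S2/3DKO_D4 library. Of 13 LIF and Stat3 targets 3 rose (Socs3, Tfcp2l1 and Gadd45g), with 0 and 1 of them called without S2/3DKO_D4 replicate 1 and replicate 2. Of 14 germ cell genes Tfap2c, Dppa3 and Rhox9 rose, all of which belong to other lists as well, while the germ cell markers Prdm1 and Nanos3 did not pass. The LIF and germ cell counts stand beside 7.21% of all genes tested that rose.

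Of 14 tested genes of the 2-cell-like state, Pramel6 and Pramel7 rose, beside 7.21% of all genes tested, so the count says little about this list. The others did not pass, Zscan4c among them at 6.82 and 12.3 CPM in S2/3DKO_D4, against 14.7 and 10.6 CPM in WT_D4. Hoxb1, a homeobox gene of the early hindbrain and mesoderm, fell, with no count in S2/3DKO_D4 and 0.59 and 0.84 CPM in WT_D4, at least 27.4-fold lower. Its call was lost without either S2/3DKO_D4 library. Of 9 DNA methylation enzymes Dnmt3a and Dnmt3b fell, and their cofactor Dnmt3l rose, at 272 and 210.0 CPM in S2/3DKO_D4, against 75.5 and 102 CPM in WT_D4. Of all genes tested, 8.0% fell and 7.21% rose.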
